A study of Mus musculus with 8 samples.

Results

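The 10 genes described here serve the recycling of iron and heme from engulfed red blood cells. They are the hemoglobin receptor gene Cd163, the heme transporter gene Slc48a1, the heme-degrading enzyme genes Hmox1, Blvra and Blvrb, the iron exporter gene Slc40a1, the ferritin genes Fth1 and Ftl1, the phagosomal metal transporter gene Slc11a1 and the transcription factor gene Spic. They were chosen by name for these roles, with earlier results of these data known, and looked up by symbol. All 10 of 10 were found among the 47643 genes of the macrophage count table and the 52458 entries of the plasma cell count table. All 10 passed the filter on low counts and stood among the 15522 genes tested.

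RNA was sequenced from 8 samples sorted from the bone marrow of wild-type B6 mice. The tumour was Vk*MYC myeloma, a plasma cell cancer that arises in mice carrying a MYC transgene under kappa light chain control, and its cells were marked with green fluorescent protein (GFP) and injected into the tibia. Tumour-associated macrophages (TAM) with high F4/80 and low CD11b on their surface were split by GFP. GFP-positive macrophages from tumour-bearing mice formed the group TAM-IC, in contact with myeloma (n = 2), GFP-negative macrophages from tumour-bearing mice formed the group TAM-NIC, not in contact (n = 2), and bone marrow macrophages from naive mice, which received no tumour, formed the naive group (n = 2). The other 2 samples are labelled plasma cells, without saying which is the myeloma and which is the polyclonal plasma cell of naive mice that the design names. No group received a drug. In each TAM group the samples are labelled mouse 1 and mouse 2. The sources used here give no ages and do not otherwise state the number of animals behind a sample. Contact was read from GFP alone, and every p-value rests only on the spread between these samples. That spread may be technical, though not wholly in TAM-IC, whose libraries differ in sex-linked transcripts as given below.

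Macrophages of the marrow and of the splenic red pulp engulf worn-out red blood cells and the nuclei that erythroblasts shed. Hemoglobin and heme are taken up or released inside the phagolysosome, the heme ring is opened by heme oxygenase into iron, carbon monoxide and biliverdin, and biliverdin is reduced to bilirubin. The freed iron is held in ferritin or handed back to the plasma through ferroportin, the product of Slc40a1. Spic is the transcription factor that red pulp and marrow macrophages with this function depend on in mice.

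Macrophage libraries held 28887725 to 46873056 counts, and the lowest member value among them rested on 301 counts. Levels are given as CPM, in which counts are scaled to the library's total. Several libraries stood apart from their labels or partners. In replicate 2 of TAM-NIC 9.13% of counts fell on immunoglobulin genes, against 0.166% to 0.632% in the other 5 macrophage libraries. Replicate 2 of TAM-IC carried the Y-linked transcript Ddx3y at 88.4 CPM and Xist at 0.0 CPM. Replicate 2 of TAM-NIC carried Ddx3y at 0.258 CPM and Xist at 40.4 CPM, so these samples, both labelled mouse 2, did not come from 1 animal. The other 5 macrophage libraries had Xist at 17.5 to 53.8 CPM and Ddx3y at 0.258 CPM or less. TAM-IC thus joined a library with Y-linked transcripts to 1 without, and the part of sex in its comparisons was not tested. Naive replicate 1 lay above naive replicate 2 in 10 of 10 members, with a median absolute log2 difference of 1.01 over the members and 0.36 over all genes tested, of which 44.3% were higher in replicate 1. General macrophage markers were present in every macrophage library and none of the 10 was at 0, with summed levels of 6397 and 6530 CPM in TAM-IC, 18980 and 8608 in TAM-NIC, and 13420 and 7086 in naive macrophages.

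The members with roles in hemoglobin uptake and heme transport are Cd163 and Slc48a1. Cd163 encodes the scavenger receptor that binds hemoglobin held by haptoglobin (ENSMUSG00000008845.9, GRCm38 chromosome 6 from 124304656 to 124330527, plus strand). It stood at 8.47 and 7.14 CPM in TAM-IC, 79.2 and 516 CPM in TAM-NIC, and 1256 and 567 CPM in naive macrophages (replicate 1 before replicate 2 throughout). Both libraries of TAM-IC lay below every other macrophage library, and those of TAM-NIC differed from each other 6.51-fold. The group mean of Cd163 was 7.81 ± 0.94 CPM in TAM-IC, which is 0.857% of the naive mean of 912 ± 487 CPM (SD, n = 2 each). Slc48a1 encodes the transporter HRG1, which moves heme out of the phagolysosome (ENSMUSG00000081534.2, chromosome 15 from 97778520 to 97792692, plus strand). It stood at 134 and 125 CPM in TAM-IC, 285 and 381 CPM in TAM-NIC, and 842 and 426 CPM in naive macrophages. The 3 groups did not overlap, with TAM-IC lowest and naive macrophages highest. In bulk samples fewer cells of a type and less RNA per cell cannot be told apart, for these and all genes that follow.

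The members with roles in heme breakdown are Hmox1, Blvra and Blvrb. Hmox1, the inducible heme oxygenase (ENSMUSG00000005413.7, chromosome 8 from 75093621 to 75100589, plus strand), stood at 147 and 161 CPM in TAM-IC, 662 and 1464 CPM in TAM-NIC, and 3880 and 1236 CPM in naive macrophages. TAM-IC lay below the rest, and the ranges of TAM-NIC and naive macrophages overlapped. Of the enzymes that reduce biliverdin, Blvrb (ENSMUSG00000040466.16, chromosome 7 from 27447978 to 27466144, plus strand) stood at 26.7 and 26.4 CPM in TAM-IC, 108 and 87.6 CPM in TAM-NIC, and 221 and 117 CPM in naive macrophages. Its groups did not overlap and kept the order seen for Slc48a1. The other reductase gene, Blvra (ENSMUSG00000001999.15, chromosome 2 from 127070665 to 127097084, plus strand), stood at 83.3 and 54.9 CPM in TAM-IC, 189 and 101 CPM in TAM-NIC, and 181 and 98.9 CPM in naive macrophages. Blvra was lowest in TAM-IC too, but TAM-NIC and naive macrophages covered nearly the same range.

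Iron leaves the cell through Slc40a1, the only known iron exporter of mammals (ENSMUSG00000025993.10, chromosome 1 from 45908068 to 45926523, minus strand). Its level was 312 and 196 CPM in TAM-IC, 2974 and 3353 CPM in TAM-NIC, and 8043 and 3632 CPM in naive macrophages. The groups did not overlap, and the mean of TAM-IC was 4.35% of the naive mean while that of TAM-NIC was 54.2%. The ferritin heavy chain gene Fth1, whose product oxidises iron for storage (ENSMUSG00000024661.6, chromosome 19 from 9980598 to 9985098, plus strand), stood at 2715 and 1745 CPM in TAM-IC, 5266 and 2738 CPM in TAM-NIC, and 3217 and 1564 CPM in naive macrophages. Here TAM-IC lay within the naive range, and the highest value was that of TAM-NIC replicate 1. The ferritin light chain gene Ftl1 (ENSMUSG00000050708.15, chromosome 7 from 45457944 to 45459884, minus strand) had 228 and 226 CPM in TAM-IC, 467 and 260 CPM in TAM-NIC, and 393 and 201 CPM in naive macrophages. Its 6 macrophage libraries came in the same order as those of Fth1.

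Slc11a1 encodes NRAMP1, which pumps iron and other divalent metals out of the phagosome, and B6 mice carry a loss-of-function allele of it (ENSMUSG00000026177.11, chromosome 1 from 74375195 to 74386062, plus strand). It stood at 480 and 499 CPM in TAM-IC, 1073 and 439 CPM in TAM-NIC, and 742 and 438 CPM in naive macrophages. TAM-IC lay inside the range of either other group. Spic (ENSMUSG00000004359.16, chromosome 10 from 88674772 to 88685015, minus strand) had 102 and 39.7 CPM in TAM-IC, 517 and 696 CPM in TAM-NIC, and 826 and 340 CPM in naive macrophages. TAM-IC lay below the rest, while TAM-NIC lay inside the naive range.

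**Figure D1:**
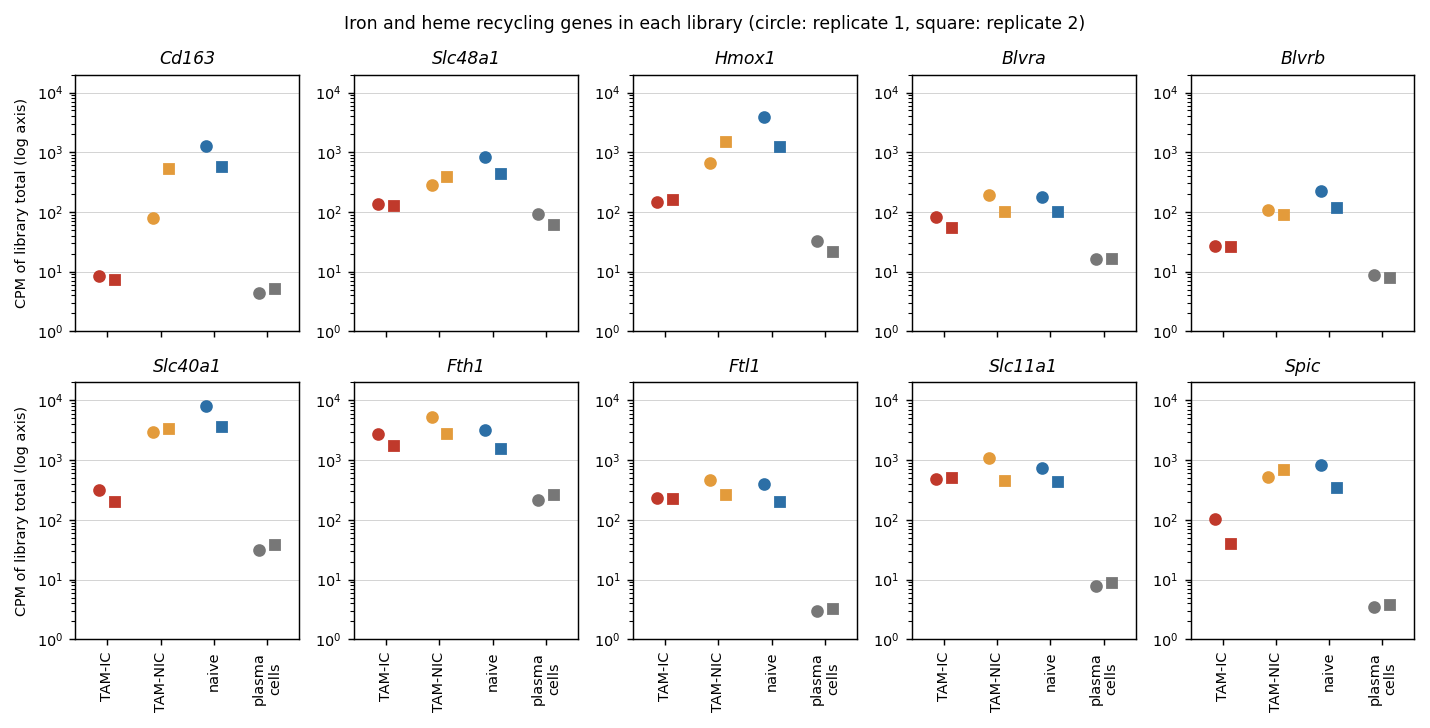
CPM of the 10 recycling genes (log axis) in each library of TAM-IC, TAM-NIC, naive macrophages and plasma cells; circles are replicate 1 and squares replicate 2, with no mean drawn. Cd163 at 8.47 and 7.14 CPM and Slc40a1 at 312 and 196 CPM in TAM-IC sit below every other macrophage library, whereas Fth1, Ftl1 and Slc11a1 in TAM-IC sit within the naive range.

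Slc40a1, Fth1 and Ftl1 share a feature that was not found in the annotated transcripts of the other 7 members. It is the iron-responsive element, a hairpin of the messenger RNA with an unpaired C and a CAGTGN loop, to which iron regulatory proteins bind when iron is scarce. In a 5′ untranslated region the bound hairpin blocks translation, and in a 3′ untranslated region, as in the transferrin receptor gene Tfrc, it protects the messenger RNA from decay. The motif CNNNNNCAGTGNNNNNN was searched on the transcript strand in GENCODE M21 transcripts, with the 5 bases on either side of the loop required to pair (G with U allowed). It was found in the 5′ untranslated region of 28 of 20543 genes (0.136%), 3 of the 10 members among them, and in the 3′ untranslated region of 127 of 20868 genes (0.609%), 0 of the 10 members among them. The 29-base windows are shown because these genes parted in the comparisons below, Slc40a1 from both ferritin genes. Each is given 5′ to 3′ on the strand of the gene from GENCODE M21 (GRCm38), at chr1:45925465-45925493 (minus strand) for Slc40a1, chr19:9982732-9982760 (plus strand) for Fth1, chr7:45459779-45459807 (minus strand) for Ftl1, all in the 5′ untranslated region, and chr16:32631219-32631247 (plus strand) for the first of 4 matches in the 3′ untranslated region of Tfrc. Capitals mark the unpaired C and the loop.
Slc40a1: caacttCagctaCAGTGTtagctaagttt
Fth1: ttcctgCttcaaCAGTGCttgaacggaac
Ftl1: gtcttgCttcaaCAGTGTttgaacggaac
Tfrc: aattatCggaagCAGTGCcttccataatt
The windows of Fth1 and Ftl1 were identical at 26 of 29 bases, and the Slc40a1 window matched each of them at 13 of 29 bases. A match is a description of the letters, and binding was not measured.

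The first comparison asked how macrophages that carried myeloma GFP differed from their GFP-negative neighbours. All 10 members had a negative log2 fold change (TAM-IC over TAM-NIC), as did 50.1% of all genes tested. For 9 of the 10, all but Slc11a1, both libraries of TAM-IC lay below both of TAM-NIC, as was the case for 22.3% of all genes. In edgeR's quasi-likelihood test 0 of the 10 passed an adjusted p of 0.05, where 0 of 15522 genes passed in either direction (0.0%). At an unadjusted p under 0.05 6 members were lower, against 10% of all genes lower and 7.09% higher. DESeq2, run as an alternative, called 6 members lower, against 7.09% of the 15221 genes to which it gave an adjusted p, and limma-voom called 0. The 6 were the same under both rules, namely Cd163, Slc48a1, Hmox1, Blvrb, Slc40a1 and Spic. In counts of 14951 genes simulated with the spread of these libraries, DESeq2 called 84 unchanged genes in this comparison and edgeR 3. Of 100 genes given a log2 fold change of 2 in either direction, DESeq2 called 51 and edgeR 12. Of 100 given 4, they called 81 and 69 in that order. Adjusted p-values of DESeq2 are therefore to be read with caution, and a miss in edgeR does not show that a gene was unchanged.

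The difference was steepest for the receptor and the exporter. Cd163 had a log2 fold change of -5.22 ± 0.99 (SE, n = 2 per group, edgeR adjusted p = 0.147, DESeq2 adjusted p = 2e-08) with a 95% interval of -7.64 to -2.79. Slc40a1 had -3.63 ± 0.60 (adjusted p = 0.119, DESeq2 2.2e-11), a level 12.4-fold lower in TAM-IC. Next in order came Spic with -3.09 ± 0.64 (adjusted p = 0.157), Hmox1 with -2.76 ± 0.69 (adjusted p = 0.185), Blvrb with -1.87 ± 0.36 (adjusted p = 0.148) and Slc48a1 with -1.34 ± 0.40 (adjusted p = 0.207). The intervals of these 6 genes excluded 0. The remaining 4 had intervals that included 0, at -1.07 ± 0.46 for Blvra, -0.84 ± 0.59 for Fth1, -0.67 ± 0.46 for Ftl1 and -0.62 ± 0.53 for Slc11a1, with adjusted p from 0.309 to 0.586. A miss of the threshold at n = 2 does not show that these 4 were alike in the TAM groups, and a difference of as much as -2.29 lay inside the interval of Fth1. The median over the members was -1.60, beside 0.00 over all genes tested.

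Replicate 2 of TAM-NIC, the library with immunoglobulin counts, moved the value of Cd163 most. Without it Cd163 had -3.38 (adjusted p = 0.0971), since the remaining library of TAM-NIC stood at 79.2 CPM. Slc40a1 had -3.59 without it and Spic -2.91, close to the values with all libraries. Without replicate 1 of TAM-NIC edgeR called Cd163, Slc40a1 and Hmox1, but those calls describe the single library left in that group.

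Markers of resident macrophages lay in the same direction. All 7 of 7 in the list (Vcam1, Siglec1, Cd5l, Timd4, Axl, Mrc1 and Marco) were lower in TAM-IC with no overlap, with a median log2 fold change of -4.28 and 0 called. Their summed level was 1486 and 355 CPM in TAM-IC, 10060 and 9222 CPM in TAM-NIC, and 18360 and 8948 CPM in naive macrophages, and Marco was at 0 counts in both libraries of TAM-IC. Neutrophil markers lay the other way, with 9 of 9 positive, 0 called and summed levels of 50270 and 28180 CPM in TAM-IC against 9137 and 17800 CPM in TAM-NIC. Of the general macrophage markers 8 of 10 had negative values, 7 of them lower without overlap, with a median of -2.28 and 0 called. The 1 marker higher in TAM-IC without overlap was Itgam, which encodes CD11b. It stood at 215 and 232 CPM in TAM-IC, 73.0 and 84.0 CPM in TAM-NIC, and 245 and 331 CPM in naive macrophages. Mertk, a receptor for engulfing dead cells, stood at 42.7 and 15.6 CPM in TAM-IC and 446 and 419 CPM in TAM-NIC. Csf1r, the receptor for the macrophage growth factor, overlapped between the TAM groups, with 2396 and 4368 CPM in TAM-IC and 3254 and 1389 CPM in TAM-NIC, and made up much of the summed level of TAM-IC.

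Other lists differed between the TAM groups too, each with 0 called. Monocyte markers were positive in 7 of 8, with 4 higher without overlap and summed levels of 6988 and 5830 CPM in TAM-IC against 1841 and 4082 CPM in TAM-NIC. Among them the chemokine receptor gene Ccr2 stood at 925 and 618 CPM in TAM-IC and 191 and 52.4 CPM in TAM-NIC. Plasma cell markers were negative in 10 of 10 (median -4.17), with 1808 and 1971 CPM in TAM-IC and 3279 and 30020 CPM in TAM-NIC, and platelet markers in 6 of 6 (median -2.22), with 61.3 and 43.8 CPM in TAM-IC and 108 and 236 CPM in TAM-NIC. Eosinophil markers were positive in 5 of 7 and erythroid markers negative in 11 of 13. The part of these cell type markers in the values of the recycling genes was not tested. The share of all genes higher without overlap is not given here for any comparison. Genes and counts named as higher without overlap therefore stand without that background.

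The second comparison set TAM-IC against macrophages of mice without tumour. Of the members, 9 of 10 had a negative log2 fold change, as did 49.8% of all genes tested. In 7 of the 10 both libraries of TAM-IC lay below both naive libraries, beside 36.7% of all genes. EdgeR called 0 members, where it called 0.187% of all genes lower (29 genes) and 0.0322% higher (5 genes). At an unadjusted p under 0.05 6 members were lower, against 7.51% of all genes lower and 7.11% higher. DESeq2 called the same 6 members lower as between the TAM groups, against 5.19% of 14318 genes, and limma-voom called 0.

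The 6 members again ran from Cd163 to Slc48a1. Cd163 had -6.71 ± 1.07 (SE, n = 2 per group, adjusted p = 0.0908), or a level 105-fold lower in TAM-IC. Slc40a1 had -4.37 ± 0.62 (adjusted p = 0.0764), Hmox1 -3.90 ± 0.73 (adjusted p = 0.121), Spic -2.90 ± 0.63 (adjusted p = 0.161), Blvrb -2.51 ± 0.37 (adjusted p = 0.0825) and Slc48a1 -2.14 ± 0.41 (adjusted p = 0.132). Blvra had -0.87 ± 0.46 (adjusted p = 0.426). The storage genes lay near 0, at 0.05 ± 0.59 for Fth1, with an interval of -1.38 to 1.48, and -0.23 ± 0.45 for Ftl1, with an interval of -1.34 to 0.88. Slc11a1 had -0.11 ± 0.53, with an interval of -1.39 to 1.17. The median over the members was -2.32, beside 0.00 over all genes tested.

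The size of these values depended on which naive library was kept. Without naive replicate 1, the higher of the pair, Hmox1 had -2.83 in place of -3.90, Slc40a1 -3.68 in place of -4.37 and Cd163 -6.02 in place of -6.71. Without naive replicate 2 they had -4.50, -4.83 and -7.17 in the same order. Calls depended on libraries outside the comparison too. All 6 share 1 estimate of the spread, and leaving a library out also changed which genes passed the filter on low counts. The parts of these in the calls were not tested. Without replicate 1 or without replicate 2 of TAM-NIC edgeR called 4 members, namely Cd163, Hmox1, Blvrb and Slc40a1. The resident markers were lower in 7 of 7 with 2 called, and erythroid markers, among them the globin genes, had negative values in 13 of 13 with 1 called and summed levels of 163 and 49.2 CPM in TAM-IC against 500 and 348 CPM in naive macrophages. General macrophage markers were negative in 9 of 10, 7 of them lower without overlap (median -1.08), and Csf1r was higher without overlap. Monocyte markers were positive in 6 of 8, 4 of them higher without overlap, and neutrophil markers were negative in 9 of 9, in both lists with 0 called. Summed neutrophil markers stood at 50270 and 28180 CPM in TAM-IC and 47740 and 74390 CPM in naive macrophages. The part of these markers in the values of the recycling genes was not tested.

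The third comparison set TAM-NIC against naive macrophages. EdgeR and DESeq2 each called 0 of the 10 members, where edgeR called 0 of 15522 genes (0.0%) and DESeq2 called 3.67% of genes lower and 4.36% higher. Of the members 0 had an unadjusted p under 0.05, beside 7.39% of all genes lower and 7.78% higher. In 5 of 10 the log2 fold change was negative, as it was for 46.3% of all genes. For 4 of 10, Cd163, Slc48a1, Blvrb and Slc40a1, both libraries of TAM-NIC lay below both naive libraries, beside 28.9% of all genes. The values were -1.50 ± 0.85 for Cd163, -1.14 ± 0.66 for Hmox1, -0.80 ± 0.40 for Slc48a1, -0.75 ± 0.54 for Slc40a1 and -0.65 ± 0.35 for Blvrb (SE, n = 2 per group, adjusted p from 0.408 to 0.578). The other 5 were positive, from 0.19 ± 0.59 for Spic to 0.89 ± 0.59 for Fth1. Every interval included 0, and that of Cd163 ran from -3.57 to 0.57.

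Cd163 was the member that split TAM-NIC. Without replicate 2 of that group its value was -3.37 (adjusted p = 0.0649), and DESeq2 then called it and Hmox1. Without replicate 1 it was -0.76. Each group enters 2 of the 3 comparisons, so their values are not independent of each other.

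**Figure D2:**
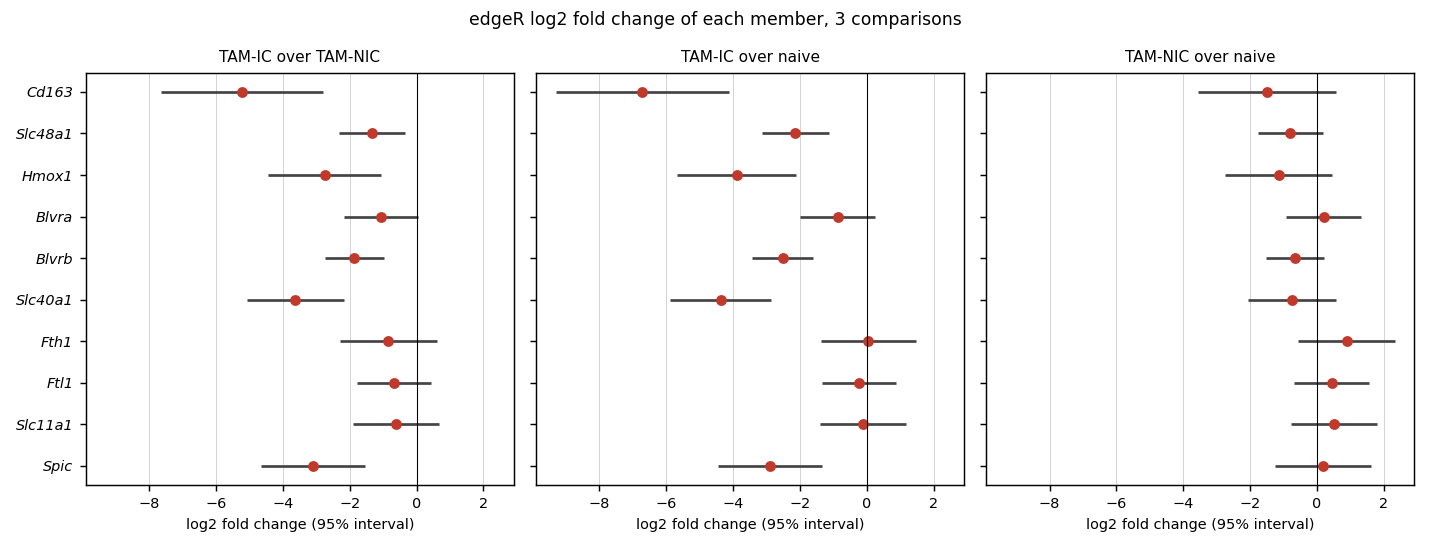
EdgeR log2 fold change of each recycling gene (points) with its 95% interval (bars) in the 3 comparisons, n = 2 libraries per group, with the vertical line at 0. In TAM-IC over naive macrophages the points run from -6.71 for Cd163 to 0.05 for Fth1, and in TAM-NIC over naive macrophages every bar crosses 0.

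Ratios of counts within a library do not depend on how libraries are scaled. The ratio of Slc40a1 to Fth1 counts was 0.115 and 0.112 in TAM-IC, 0.565 and 1.22 in TAM-NIC, and 2.50 and 2.32 in naive macrophages. It separated the 3 groups without overlap, and the naive libraries, whose single-gene levels differed 2.21-fold for Slc40a1, agreed closely. Hmox1 to Fth1 gave 0.0541 and 0.0926 in TAM-IC, 0.126 and 0.535 in TAM-NIC, and 1.21 and 0.79 in naive macrophages. This ratio kept the groups in the same order. Blvrb to Blvra gave 0.321 and 0.481 in TAM-IC, 0.57 and 0.866 in TAM-NIC, and 1.22 and 1.18 in naive macrophages. Here too the groups did not overlap. The ratio of the ferritin chains, Fth1 to Ftl1, was 11.9 and 7.73 in TAM-IC, 11.3 and 10.5 in TAM-NIC, and 8.19 and 7.78 in naive macrophages, and its groups overlapped. Further ratios were computed. Slc40a1 to Hmox1 gave 2.13 and 1.21 in TAM-IC, 4.49 and 2.29 in TAM-NIC, and 2.07 and 2.94 in naive macrophages. There the naive range overlapped both TAM groups. Slc40a1 to Tfrc gave 8.9 and 9.32, 67.1 and 42.0, and 84.0 and 36.4 in that order, with TAM-NIC inside the naive range. Cd163 to Slc11a1 separated the groups as Slc40a1 to Fth1 did. No test was made on these ratios, which were chosen with the levels known.

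**Figure D3:**
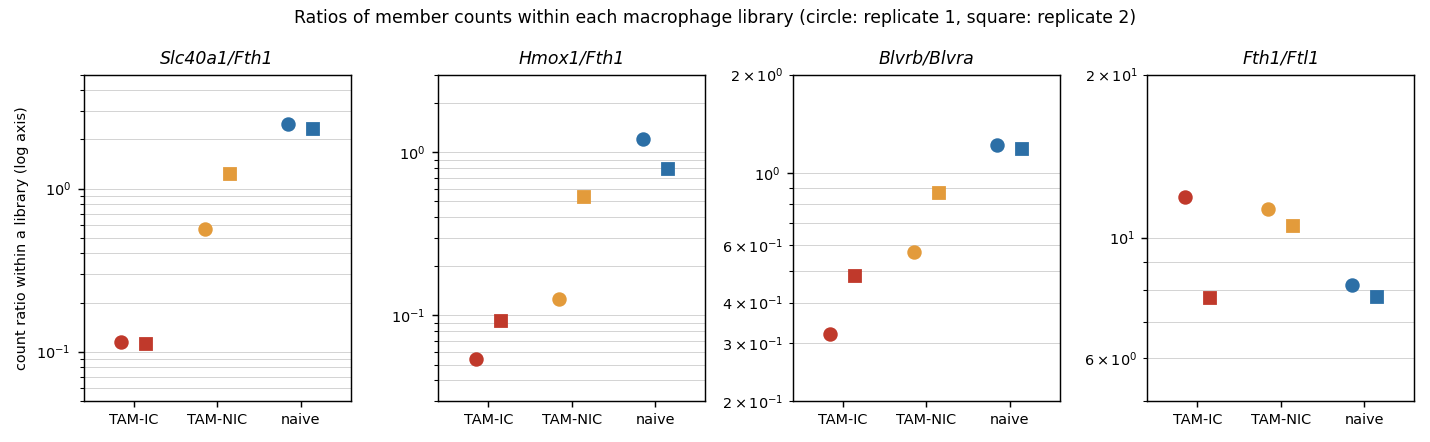
Ratios of counts within each macrophage library (log axes of different ranges) for Slc40a1 to Fth1, Hmox1 to Fth1, Blvrb to Blvra and Fth1 to Ftl1; circles are replicate 1 and squares replicate 2. The first 3 ratios order the groups as TAM-IC, TAM-NIC and naive, from 0.115 and 0.112 to 2.50 and 2.32 for Slc40a1 to Fth1, while Fth1 to Ftl1 overlaps between groups.

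Order of the levels within a library was compared per kilobase of the longest coding transcript. In both libraries of TAM-IC Fth1 came first, followed by Ftl1 and Slc11a1, with Cd163 last. On this scale Fth1 stood at 1817 and 1168 CPM per kilobase, Slc11a1 at 207 and 216, Slc40a1 at 92.7 and 58.1, and Cd163 at 1.91 and 1.61. In naive macrophages the leading 3 genes of either library were Hmox1, Slc40a1 and Fth1. There Slc40a1 stood at 2387 and 1078 CPM per kilobase, Hmox1 at 2473 and 787, Fth1 at 2153 and 1047, and Cd163 at 283 and 128. In replicate 1 of TAM-NIC Fth1 led with 3525 CPM per kilobase and Slc40a1 followed with 882, and in replicate 2 Fth1 led with 1832 and Slc40a1 followed with 995. The leading 3 genes of the naive libraries did not differ beyond the spread between those libraries. Blvrb was among the lowest 3 members in every macrophage library. When length was taken over all merged exons instead, Hmox1 stood ahead of Slc40a1 in all 6 macrophage libraries, since the exons of Slc40a1 then sum to 9000 bases in place of 3370.

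The 6 genes whose pattern over the 6 macrophage libraries was most like that of Slc40a1, by Pearson correlation of log2 CPM among 8728 genes, were Slc22a23 (0.999), Bank1 (0.998), Mrc1 (0.997), Cela1 (0.997), Snx25 (0.997) and Clstn1 (0.996). Slc22a23 stood at 1.62 and 1.14 CPM in TAM-IC, 24.9 and 25.03 CPM in TAM-NIC, and 65.9 and 30.4 CPM in naive macrophages. Among the members the correlation with Slc40a1 was 0.98 for Blvrb, 0.96 for Spic, Hmox1, Slc48a1 and Cd163, 0.82 for Blvra, 0.52 for Ftl1, 0.36 for Slc11a1 and 0.35 for Fth1. The 6 points are 3 pairs that share a group, so these are descriptions of the pattern of group levels and carry no p.

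A further 64 iron and heme genes were counted by role, of which 56 were tested. Between the TAM groups 0 of 56 passed in edgeR in either direction, and DESeq2 called 3 higher and 9 lower. Among all 15522 genes tested DESeq2 called 490 higher and 1079 lower. The median log2 fold change of the 56 was -0.15, beside -1.60 for the recycling genes. Iron export and oxidation genes had a median of -1.69 over 4 tested genes, 2 of them negative. Among the roles with at least 5 tested genes, iron uptake and reduction had the lowest median, -1.19 over 10 genes, of which 8 were negative. The zinc and iron importer genes Slc39a8 and Slc39a14 belong to it, with -2.56 ± 0.66 (SE, adjusted p = 0.19) and -2.74 ± 0.77 (adjusted p = 0.202). So does Lcn2, which encodes lipocalin 2, a neutrophil granule protein that binds iron-carrying siderophores, and which stood at 2377 and 1566 CPM in TAM-IC and 396 and 931 CPM in TAM-NIC (1.59 ± 0.54, adjusted p = 0.233). The mannose receptor gene Mrc1, also on the resident macrophage list, had -4.27 ± 0.51 (adjusted p = 0.0772). Hp, the gene of the hemoglobin-binding protein haptoglobin, was higher in TAM-IC at 976 and 1004 CPM, against 177 and 330 CPM in TAM-NIC (1.99 ± 0.44, adjusted p = 0.166). Gsr, the glutathione reductase gene, followed at 1.57 ± 0.40 (adjusted p = 0.189).

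Over naive macrophages, 1 of the 56 fell in TAM-IC and 0 rose in edgeR, while DESeq2 called 1 higher and 9 lower. Among all genes edgeR called 0.187% lower and DESeq2 5.19% lower, and the share that DESeq2 called higher is not given here. The gene that fell in edgeR was Mrc1, at 46.7 and 24.5 CPM in TAM-IC and 1865 and 1080 CPM in naive macrophages (log2 fold change -5.22 ± 0.54, edgeR adjusted p = 0.0442). Ncoa4, the receptor that delivers ferritin to the lysosome for breakdown, stood at 17.9 and 14.2 CPM in TAM-IC and 51.6 and 47.1 CPM in naive macrophages (-1.47 ± 0.25, edgeR adjusted p = 0.1, DESeq2 1.22e-05). Tfrc, the transferrin receptor gene, stood at 35.1 and 21 CPM in TAM-IC and 95.8 and 99.7 CPM in naive macrophages (-1.65 ± 0.37, edgeR adjusted p = 0.17, DESeq2 0.00255). Both were lower in TAM-IC without overlap, as most of the recycling genes were. Higher without overlap, but not called by edgeR, were Nfe2l2, the gene of the transcription factor NRF2 that induces Hmox1 and the ferritin genes (1.18 ± 0.29, edgeR adjusted p = 0.191, DESeq2 0.000158), the heme exporter gene Flvcr1 (1.35 ± 0.42, adjusted p = 0.259) and the iron-sulfur scaffold gene Iscu (0.89 ± 0.35, adjusted p = 0.33). The median over the 56 was -0.11.

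For TAM-NIC over naive macrophages 0 of 56 passed in edgeR. DESeq2 called 5 higher and 3 lower, beside 4.36% higher and 3.67% lower among all genes. The median of the 56 was -0.04. Nfe2l2 was higher here too, at 546 and 496 CPM in TAM-NIC against 211 and 258 CPM in naive macrophages (1.29 ± 0.29, adjusted p = 0.219). The ferroxidase gene Cp, whose product oxidises iron that leaves through ferroportin, stood at 86.7 and 925 CPM in TAM-NIC and 19.6 and 12.4 CPM in naive macrophages (5.10 ± 1.18, adjusted p = 0.219), with its high value in replicate 2. Slc39a14 was also higher in TAM-NIC, at 16.7 and 77.0 CPM against 6.53 and 7.34 CPM in naive macrophages (2.88 ± 0.78, adjusted p = 0.233), again most in replicate 2. Lower were Hp (-1.77 ± 0.44, adjusted p = 0.225) and Lcn2 (-2.11 ± 0.55, adjusted p = 0.229). Neutrophil markers had negative values in 9 of 9 in this comparison with 0 called, and erythroid markers in 12 of 13 with 0 called. Plasma cell markers were positive in 10 of 10, platelet markers in 6 of 6 and general macrophage markers in 8 of 10, with 0 called. The part of these markers in the values of the genes named here was not tested.

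**Figure D4:**
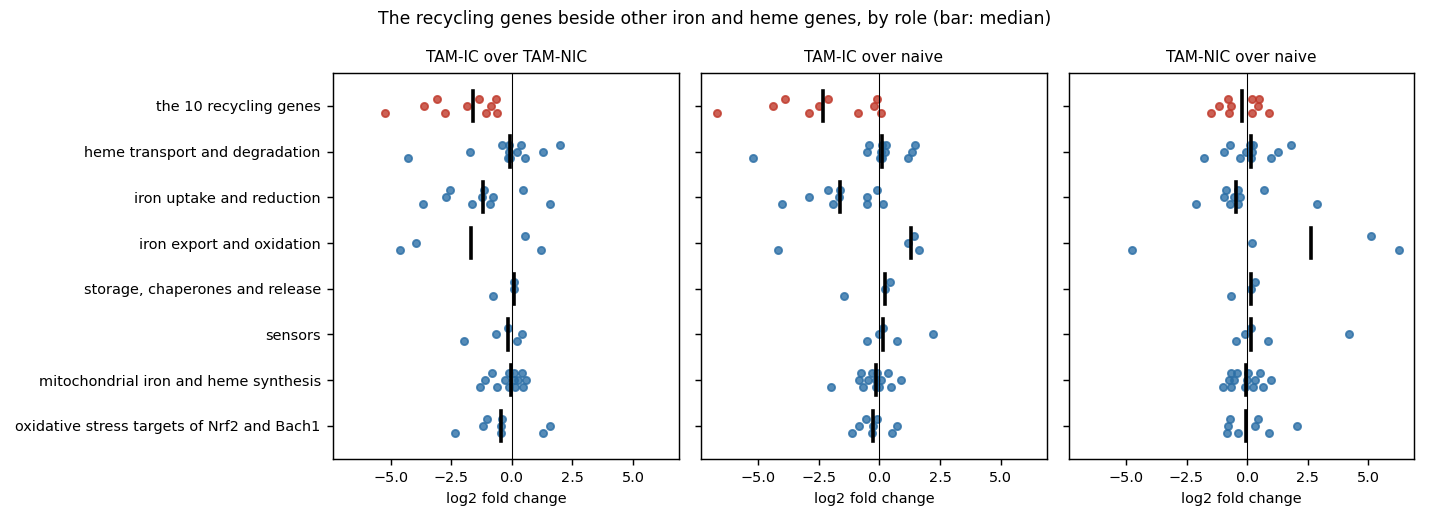
EdgeR log2 fold changes of the 10 recycling genes (red) and of 56 other iron and heme genes by role (blue), 1 point per gene, with a black bar at the median of each row, in the 3 comparisons. The median of the recycling genes is -1.60 in TAM-IC over TAM-NIC and -2.32 in TAM-IC over naive macrophages, and -0.23 in TAM-NIC over naive macrophages.

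In the plasma cell libraries the recycling genes were given as levels without a test, since the labels do not say which kind of plasma cell each library holds and since 67.3% and 70.4% of their counts fell on immunoglobulin genes, which lowers the CPM of all other genes. Fth1 was highest at 214 and 260 CPM, and Slc48a1 followed at 92.6 and 60.9 CPM. Slc40a1 stood at 31.3 and 37.8 CPM, Hmox1 at 32.8 and 21.6 CPM and Blvra at 16.0 and 16.4 CPM. The others stood at 2.97 to 8.69 CPM, with Ftl1 at 2.97 and 3.26 CPM and Spic at 3.53 and 3.81 CPM. The levels were then set against the naive macrophage mean. Cd163, Slc40a1 and Spic stood at 0.484% to 0.653% of the naive mean, beside 0.567% and 0.626% for the summed resident macrophage markers. The summed general macrophage markers stood at 1.03% and 1.0%. Within that list C1qa stood at 0.603% and 0.719%, Cd14 at 1.49% and 1.85%, Cd68 at 3.67% and 1.91%, and Itgam at 6.94% and 6.01%. Hmox1, Ftl1 and Slc11a1 stood at 0.846% to 1.47%. The part of macrophage reads in these levels was not tested. Slc48a1 stood at 14.6% and 9.61%, Blvra at 11.4% and 11.7%, Fth1 at 8.94% and 10.9% and Blvrb at 5.13% and 4.62% of the naive mean. In plasma cells Fth1 counts were 71.9 and 79.7 times those of Ftl1, outside the range of 7.73 to 11.9 in macrophages.

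**Figure D5:**
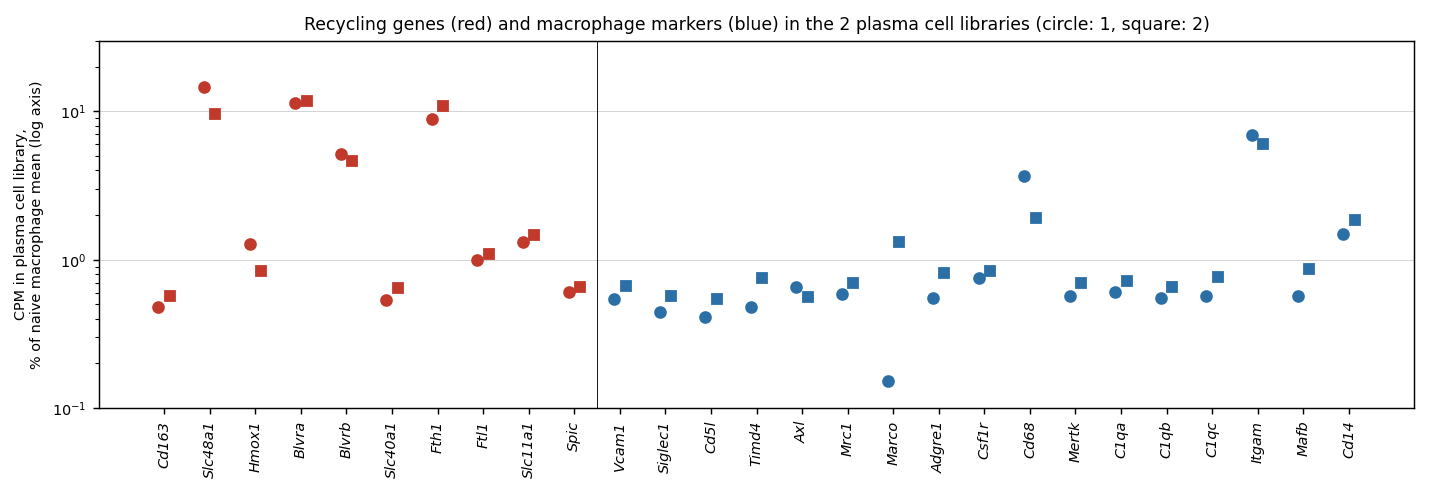
Level of each recycling gene (red) and of macrophage markers (blue) in plasma cell library 1 (circles) and 2 (squares), as a percent of the mean CPM of the 2 naive macrophage libraries (log axis). Cd163, Slc40a1 and Spic sit at 0.484% to 0.653% like most markers, while Slc48a1, Blvra, Fth1 and Blvrb sit between 4.62% and 14.6%.

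Reads can be shared between some of these genes and others. In macrophage libraries, copies named as Ftl pseudogenes held 1.48% to 1.98% of the counts of Ftl1 and these copies. In plasma cell libraries they held 8.30% and 8.09%. Those named as Fth pseudogenes held at most 0.0177% in macrophage libraries. Any copies annotated under other names were not counted. The sources used here do not say how reads that map to several copies were counted, so the level of Ftl1 and its ratio to Fth1 are uncertain. The kit does not mark the strand, and the annotation places Hdac7 over 29 bases of Slc48a1, and the transcripts Gm22133 and Gm10252 over 109 and 416 bases of Ftl1.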

How the data were processed

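RNA was sequenced in bulk from 6 macrophage and 2 plasma cell samples, in libraries of the SMART-Seq v4 low-input kit per the labels' protocols. The deposited values are whole-number counts of reads per gene in a macrophage table and a plasma cell table, and 0 columns were left without a sample. STAR, featureCounts, DESeq2 1.26, mm10 and GRCm38 are named in the submitters' processing notes. Annotation release and strand setting are not given there. Macrophage gene IDs were looked up in GENCODE M21 (47224 of 47643 matched, the others at most 0.117% of a library), plasma cell entries by symbol (48081 of 52458). Gene coordinates cover introns and untranslated regions.

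One edgeR 4.0.16 quasi-likelihood model (R 4.3.3, TMM, filterByExpr with minimum count 10 and total 15, no block) was fitted to all 6 macrophage libraries, leaving 3 residual degrees of freedom. P-values were adjusted by Benjamini-Hochberg over 15522 genes, with a threshold of 0.05, and are edgeR's unless another tool is named. Intervals are 95%. CPM, ratios and sequence searches were computed in Python 3.11.15. Scripts were tested on simulated counts. Libraries held 28887725 to 81792139 counts.

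All 10 members are named throughout, with up to 3 of 64 other iron and heme genes per direction by smallest p. One result under this rule is not reported here. The 6 genes nearest to Slc40a1 were sought where mean log2 CPM (prior count 2) reached 3. Members, lists and the 8 marker lists were chosen with earlier results of these data known. Alternatives were DESeq2 1.42.0, limma-voom 3.58.1, bias-adjusted quasi-dispersions, RLE factors, no filter or 50 counts in 2 libraries, a replicate block, each library left out, immunoglobulin and hemoglobin genes left out, and TMM-scaled levels.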

Additional observations from a re-analysis of the deposited data

Results flagged for a closer look

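Every recycling gene gave counts in both plasma cell libraries, which enter no comparison, at levels above what a count of 0 allows. The lower of the 2 libraries held 214 CPM of Fth1, 60.9 CPM of Slc48a1, 31.3 CPM of Slc40a1, 21.6 CPM of Hmox1 and 16.0 CPM of Blvra. It held 7.8 CPM of Blvrb, 7.8 CPM of Slc11a1, 4.41 CPM of Cd163, 3.53 CPM of Spic and 2.97 CPM of Ftl1. Macrophage markers were present in the same libraries at a summed 106 and 103 CPM, and their part in these levels was not tested.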

How the results depend on the processing

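Counts of calls depended on the test and filter. They are given for TAM-IC over TAM-NIC, TAM-IC over naive and TAM-NIC over naive, in this order. Against 0, 34 and 0 genes in edgeR, DESeq2 called 1569, 1217 and 1247, limma-voom 0, 0 and 0, bias-adjusted quasi-dispersions 22, 56 and 0, RLE factors 0, 22 and 0, no filter 1871, 1437 and 1548, and leaving out immunoglobulin and hemoglobin genes 0, 20 and 0. The replicate block by mouse number called 59, 187 and 0 genes, although same-numbered TAM samples shared little (correlation of deviations 0.159 over 15522 genes) and those labelled mouse 2 differ in sex-linked genes. Leaving out each library gave 0 to 1510, 0 to 534 and 0 to 477. Members called were 0, 0 and 0 in edgeR, 6, 6 and 0 in DESeq2, 6, 6 and 1 without a filter (the 1 being Cd163, adjusted p = 0.0349), 0, 1 and 0 with the replicate block (Cd163, adjusted p = 0.0458), and 0 to 3, 0 to 4 and 0 with a library left out. After the data were seen, DESeq2 was also run without single TAM libraries. Without TAM-NIC replicate 2 it called 1392, 2288 and 2101 genes and 6, 6 and 2 members, Blvra taking the place of Slc48a1 between the TAM groups. Without TAM-IC replicate 2 it called 505, 460 and 986 genes and 5, 6 and 0 members.

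The 6 members that DESeq2 called stayed negative in both comparisons of TAM-IC under every alternative run. Values near 0 changed sign, and the cause was not tested. With each library left out, Slc11a1 ran from -1.17 to 0.22 between the TAM groups. Over naive in TAM-IC, Slc11a1 ran from -0.44 to 0.33, Ftl1 from -0.64 to 0.34 and Fth1 from -0.379 to 0.67. Fth1 was also -0.002 with DESeq2 or RLE factors, -0.019 with the stricter filter and -0.001 with DESeq2 without TAM-NIC replicate 2. In TAM-NIC over naive, Blvra ran from -0.407 to 0.70, Slc11a1 from -0.363 to 1.02, Ftl1 from -0.133 to 1.00 and Spic from -0.328 to 0.96, and Spic was -0.053 with DESeq2 without TAM-NIC replicate 2. TMM-scaled levels were 0.932 to 1.07 times those by library total.

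The comparisons rest on 2 libraries a group and 3 residual degrees of freedom, and the effect of depth on them was not tested. A fit without 1 library leaves a group with a lone sample, assumed to vary like the others.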
